A study of Mus musculus with 4 samples.

Results

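The genes described here are 10 members of the Notch pathway: the receptors Notch1, Notch2 and Notch3, the ligands Jag1, Jag2 and Dll1, the receptor-modifying enzyme Lfng, the DNA-binding effector Rbpj and the target genes Hes1 and Hey1. They were taken by name, and all 10 were found among the 32285 genes listed in each of the 4 single-cell libraries. The libraries hold epidermal cells from the back skin of adult mice, 1 library per group. Control mice had the genotype DNp63fl/fl, in which ΔNp63, the p63 isoform of basal keratinocytes, carries loxP sites. Ablated mice were DNp63fl/fl;K14-CreT2, with a tamoxifen-activated Cre driven by the keratin 14 promoter of basal epidermal cells. Both genotypes were gavaged with 200 mg/kg tamoxifen each day for 5 days, and cells were isolated either 1 day or 1 week later. The labels give the mice as 2 to 17 months old and of both sexes in a 50:50 ratio, and the skin was trypsinised either in the cold or at body temperature. Which age, sex or digestion went into which library, and how many mice, is not given in the sources used here.

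Notch receptors are single-pass membrane proteins that are cut when a ligand on a neighbouring cell binds them. The freed intracellular part joins RBPJ on DNA and switches on genes such as Hes1 and Hey1, which encode transcriptional repressors. In the epidermis Notch signalling is known for its part in the commitment of basal keratinocytes to the suprabasal layers, and p63 is known for its part in keeping basal cells proliferative. In the hair follicle the pathway is known for its part in the fate of bulge-derived cells.

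Because each group is a single library, the differences are given without any test and without a check over replicates. Levels are UMIs (captured RNA molecules) of a gene as a count per 1000000 UMIs of the same cells (CPM), summed over the cells of a class. Intervals are 95% intervals that cover counting error only, not the spread between mice. A difference was called when the ratio of ablated to control was 2-fold or more and the gene had at least 50 UMIs over both sums. Time points were not compared, because the 1-day libraries came from the 3′ kit and the 1-week libraries from the 5′ kit. The libraries held 179736563 (1-day control), 144323031 (1-day ablated), 88903603 (1-week control) and 68191870 (1-week ablated) gene UMIs. After filtering they gave 15626 to 23651 cells each. Control and ablated libraries shared 299 barcodes at 1 day and 661 at 1 week. Trp63, the targeted gene, was at 404 CPM in control and 141 CPM in ablated keratinocytes of the 1-day libraries, and at 449 and 142 CPM in those of 1 week, counted over all its transcripts. The 1-day keratinocyte sums leave out the Krt8-led cells described below. Trp63 was lower after ablation in 9 of 9 keratinocyte classes at 1 day and in 4 of 4 at 1 week. The summed levels of 6 Langerhans cell genes in the keratinocytes were 164 (control) and 331 CPM (ablated) in the 1-day libraries and 130 and 122 CPM in the 1-week libraries. Those of 8 T cell genes were 81.2 and 42.7 CPM, then 70.7 and 38.6 CPM, with none of these genes at 0; their part in the results was not tested.

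Keratinocytes were clustered without the Notch pathway genes and placed in classes by known markers: basal interfollicular, spinous, granular, upper hair follicle, bulge with outer root sheath, sebaceous and cycling. A further cluster at each time was called Fst-led because Fst and Aldh3a1 were both among its leading genes. This rule came before the layer and follicle classes, so the cluster was not tried for any of them. Fst was among its leading 10 at both times. At 1 day its leading genes were the chemokine genes Ccl2, Ccl7 and Cxcl12, with Fst and Aldh3a1 after them, and at 1 week Fst and Sostdc1. The makeup differed strongly between genotypes. At 1 day basal interfollicular cells numbered 4881 among control and 601 among ablated cells, spinous cells 4796 and 862, and granular cells 195 and 3673. Of the granular cells in the ablated library, 2913 sat in a cluster led by Slpi and Sprr2 genes with 3 control cells. The granular number rests on the clustering resolution: at 0.5 a cluster of 4258 ablated cells with these genes among its leading 10 was left without a class and 870 ablated granular cells remained, and at 2 a cluster of 2267 such ablated cells was left without one. Another 6912 ablated cells, and 7 control cells, fell in 2 clusters with Krt8 among their 10 leading genes, called Krt8-led, and were kept apart. At 1 week the ablated library held 14 basal interfollicular and 15 spinous cells against 2079 and 1180 in the control. Ratios within a class were therefore formed over clusters with at least 50 cells of both libraries, which at 1 week left the follicle, Fst-led and sebaceous classes. A further 11667 control and 11353 ablated barcodes of the 1-week libraries fell in clusters, called low-UMI, where at least 50% of barcodes resembled free RNA. Such barcodes had under 3000 UMIs and a profile like that of the lowest-UMI barcodes. These clusters entered no class.

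All 10 members are protein-coding genes in GENCODE M21 on mouse build GRCm38. Notch2 lies at chr3:98013527-98150361 on the plus strand, and Notch1 and Notch3 on the minus strand at chr2:26457903-26516663 and chr17:32120820-32166852. The ligand genes lie on the minus strand at chr2:137081456-137116644 (Jag1), chr12:112907819-112929776 (Jag2) and chr17:15367354-15376872 (Dll1). Lfng is at chr5:140607320-140615545, Rbpj at chr5:53466152-53657362 and Hes1 at chr16:30064384-30067796, each on the plus strand, and Hey1 is at chr3:8663359-8667256 on the minus strand. RefSeq promoter windows (GRCm38.p6) were matched for 8 of the 10, and 4 of these genes had a window of at least 200 bases before the annotated gene. Those of Notch2, Dll1 and Lfng are shown: the member past 2-fold in the keratinocytes of the 1-day libraries, the member most marked by the basal layer, and the window with the RBPJ motif. Capitals mark CATG, the core of a p53-family half-site, in the first pair, and TGGGAA, the RBPJ core, in Lfng; each was searched on both strands. The windows are chr3:98013288-98013526 (plus strand), chr17:15376933-15377182 (minus strand) and chr5:140607091-140607319 (plus strand).
Notch2: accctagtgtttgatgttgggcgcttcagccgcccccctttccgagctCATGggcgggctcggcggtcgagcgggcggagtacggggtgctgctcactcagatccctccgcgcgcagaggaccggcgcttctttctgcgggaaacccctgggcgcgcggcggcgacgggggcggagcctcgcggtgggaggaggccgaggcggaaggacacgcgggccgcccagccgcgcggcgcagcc
Dll1: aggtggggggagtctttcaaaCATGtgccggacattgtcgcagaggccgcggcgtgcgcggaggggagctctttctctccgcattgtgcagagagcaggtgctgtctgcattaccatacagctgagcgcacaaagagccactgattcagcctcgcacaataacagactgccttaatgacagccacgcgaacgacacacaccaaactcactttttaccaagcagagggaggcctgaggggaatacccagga
Lfng: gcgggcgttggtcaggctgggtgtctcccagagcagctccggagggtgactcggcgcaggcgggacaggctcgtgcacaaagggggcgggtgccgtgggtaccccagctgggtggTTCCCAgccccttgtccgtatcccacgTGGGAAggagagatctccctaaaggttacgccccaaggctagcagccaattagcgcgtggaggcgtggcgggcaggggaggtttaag
The Lfng window held TGGGAA at 2 places, once on each strand, and a window of its length held the motif in 20% of 32851 promoters. CATG occurred once in the Notch2 window and once in that of Dll1, and in 52.8% and 53.9% of promoters at these lengths. A match is a description of the letters and no evidence of binding.

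Over all keratinocytes, with the Krt8-led cells left out, 1 of the 10 members passed 2-fold at 1 day, against 8.51% of the 13331 genes with enough UMIs. That member was Notch2, at 30.9 CPM in control and 74.5 CPM in ablated cells, a log2 ratio of 1.27 (1.21 to 1.33). Of all genes 6.57% were 2-fold higher and 1.94% 2-fold lower. The median log2 ratio of the members was 0.15 and that of all genes 0.04. Higher but short of 2-fold were Rbpj (52.9 and 74.3 CPM), Hes1 (18.5 and 25.2 CPM) and Notch3 (23.8 and 29.9 CPM). Lower were Jag2 (32.7 and 20.8 CPM), Dll1 (46.5 and 30 CPM) and Notch1 (81.0 and 65.7 CPM). The intervals of Jag1, Lfng and Hey1 took in no change. With the 6912 ablated Krt8-led cells counted in, 1 member again passed 2-fold, against 8.41% of 13480 genes. Dll1 was then close to unchanged, as given below.

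At 1 week 2 of the 10 members passed 2-fold in all keratinocytes, against 13.8% of 12917 genes. Dll1 was at 48.8 CPM in control and 14 CPM in ablated cells, a log2 ratio of -1.80 (-1.94 to -1.66). Hey1 was at 0.64 CPM (31 UMIs) and 1.30 CPM (46 UMIs), a log2 ratio of 1.02 (0.33 to 1.73). The median log2 ratio was -0.08 for the members and 0.08 for all genes. The interval lay above no change for 3 members and below it for 4. It covers counting error only, and the share of all genes with such intervals is not given here. Over the clusters with at least 50 cells of both libraries, where the basal and spinous clusters drop out, no member passed 2-fold, against 5.41% of 11862 genes. The log2 ratio of Dll1 was then -0.45 (-0.68 to -0.22) and that of Hey1 0.73 (-0.04 to 1.54). This restriction kept the follicle, Fst-led and sebaceous cells and dropped granular and cycling cells as well. At 1 day the same restriction left Notch2 as the 1 member past 2-fold (log2 ratio 1.04), against 8.95% of genes.

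**Figure D1:**
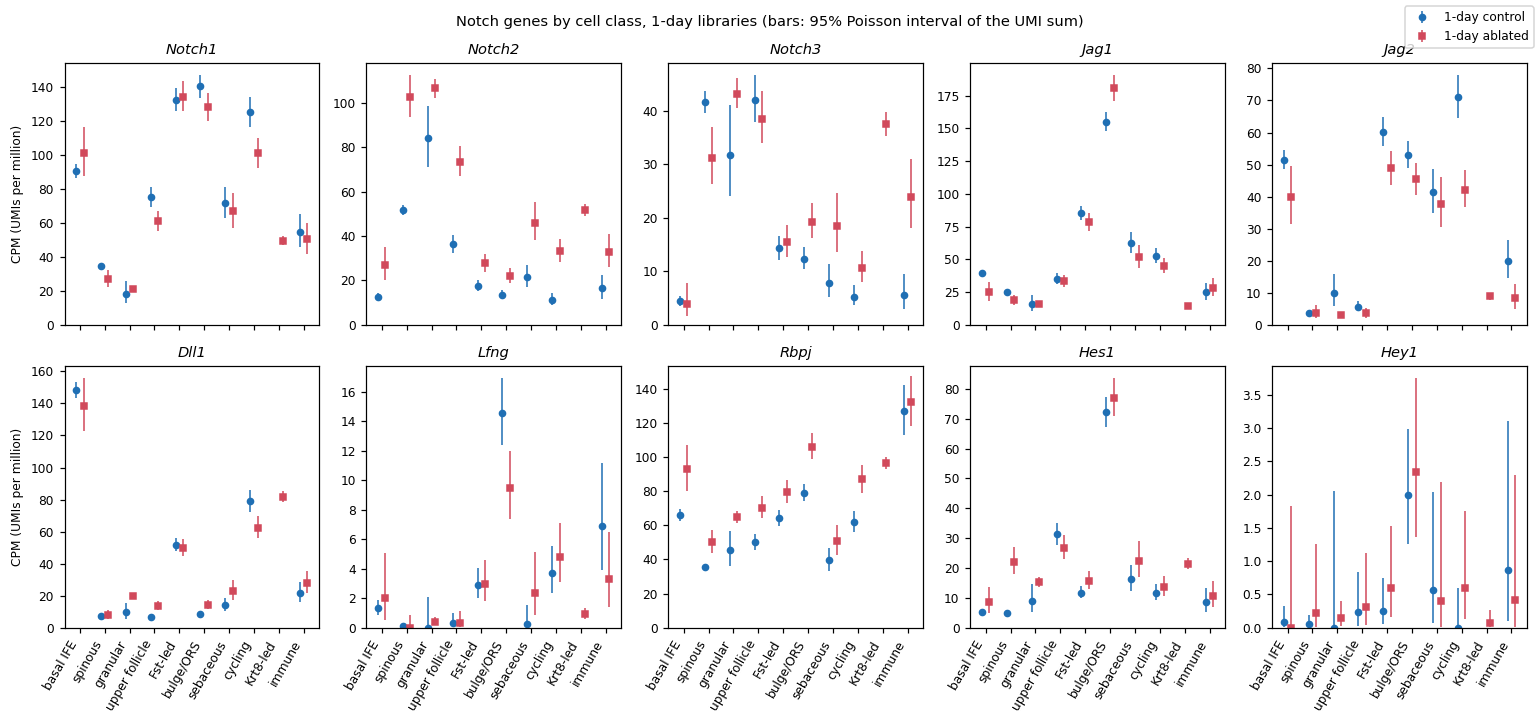
CPM of each member (vertical axis, linear, from 0) by cell class (horizontal axis) in the 1-day control (circles) and 1-day ablated (squares) libraries; bars are 95% Poisson intervals of the UMI sum, and classes with under 50 cells in a library are left out. Dll1 stands at 149 CPM in control basal cells, Jag1 and Hes1 are highest in the bulge among the named keratinocyte classes, and Notch2 is higher in the ablated than in the control library in each class shown for both.

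Among the receptors, Notch1, the receptor most tied to epidermal differentiation, was found in every keratinocyte class. In the 1-day control it stood at 140 CPM in the bulge and outer root sheath, 133 CPM in Fst-led cells and 125 CPM in cycling cells, and the intervals of neighbours in this order overlapped. It was lower in basal interfollicular cells (90.5 CPM), the upper follicle (75.4 CPM), spinous cells (34.7 CPM) and granular cells (18.4 CPM), a fall from the basal to the granular layer with intervals that did not overlap. The 1-week control gave 114 CPM in basal and 76.5 CPM in spinous cells. After ablation Notch1 was at 1 day at 101 CPM in basal interfollicular, 27.0 CPM in spinous, 60.9 CPM in upper follicle and 128 CPM in bulge cells. Its log2 ratios over the 9 classes ran from -0.87 to 0.31, and none passed 2-fold. At 1 week it was lower in the upper follicle (111 and 70.0 CPM, log2 ratio -0.66, -0.88 to -0.44) and in Fst-led cells (173 and 135 CPM, -0.36, -0.48 to -0.23). In bulge cells it was at 103 and 105 CPM (0.03, -0.17 to 0.22). In the 1 sebaceous cluster that both libraries filled it was at 102 and 47.5 CPM, a log2 ratio of -1.10 (-1.57 to -0.64). This passed 2-fold, where 8.92% of genes did.

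Notch2 had the opposite layering. In the 1-day control it was at 12.6 CPM in basal interfollicular, 51.8 CPM in spinous and 84.2 CPM in granular cells, and these intervals did not overlap. The upper follicle gave 36.3 CPM, and the sebaceous, Fst-led, bulge and cycling classes gave 21.4, 17.4, 13.6 and 11.4 CPM. In the 1-week control spinous cells (96.4 CPM) and the upper follicle (69.2 CPM) stood above the other named keratinocyte classes. These ran from 19.4 CPM in the bulge to 27.3 CPM in Fst-led cells. In both controls Notch2 was higher in spinous than in basal interfollicular cells, the reverse of Notch1.

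One day after ablation Notch2 was higher in each of the 9 keratinocyte classes, with intervals above 0 in all 9 and a ratio of 2-fold or more in 5. The basal interfollicular class went from 12.6 CPM in the control to 26.8 CPM in the ablated library (log2 ratio 1.09, 0.64 to 1.51), where 6.35% of genes passed 2-fold. The upper follicle went from 36.3 to 73.4 CPM (1.02, 0.81 to 1.23), where 2.54% of genes did. Both upper follicle clusters showed it, at 0.98 and 1.00. Sebaceous cells (21.4 and 46.1 CPM, 1.11) and cycling cells (11.4 and 33.1 CPM, 1.54) also passed, with 6.07% and 5.25% of genes past 2-fold. Bulge cells (13.6 and 21.9 CPM, 0.69), Fst-led cells (17.4 and 27.8 CPM, 0.67) and the granular cluster of both libraries (85.0 and 120 CPM, 0.50) were higher without passing, where 2.54%, 1.88% and 8.04% of genes passed.

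The spinous class gave 51.8 CPM in control and 103 CPM in ablated cells, a log2 ratio of 0.99 (0.84 to 1.14), with 7.98% of genes past 2-fold. Summed over 6 Langerhans cell genes, spinous cells were at 76.4 and 141 CPM, and the part of this in the 1-day spinous values of any member was not tested. Also at 1 day, 8 T cell genes summed to 61.7 and 29.8 CPM in basal interfollicular cells and 6 fibroblast genes to 29.7 and 46.9 CPM in bulge cells, and their part in the values there was not tested either. The spinous class joins 2 clusters filled differently by the libraries, and its ratio lay above that of either. In the Krt1-led cluster (3449 control and 231 ablated cells) Notch2 was at 38.1 and 39.5 CPM, a log2 ratio of 0.05 (-0.50 to 0.56). Trp63 was no lower in the ablated cells of that cluster, at 370 and 378 CPM. In the cluster led by Serpinb12 and Ivl, genes of the upper spinous layer (1347 and 631 cells), it was at 71.0 and 117 CPM, a log2 ratio of 0.72 (0.56 to 0.88), and Trp63 was at 200 and 137 CPM. Over the 16 clusters with at least 50 Notch2 UMIs the ratio was above 0 in 15 and its interval in 12. The exception, a bulge cluster led by Aspn and Pthlh, gave -0.07, and Trp63 was at 472 and 478 CPM there. The class without a clear layer gave 27.2 and 99.1 CPM (1.87), where 12.2% of genes passed 2-fold. It holds a cluster of 129 control and 2388 ablated cells led by mt-Nd6 with Notch2 among its leading genes, at 96.2 and 130 CPM.

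Immune cells of the same libraries were measured the same way. In T and Langerhans cell clusters combined, Notch2 was at 16.4 CPM in control and 33.0 CPM in ablated cells at 1 day, a log2 ratio of 1.01 (0.44 to 1.61), within the range of the keratinocyte classes, and 10.7% of genes passed 2-fold in them. Langerhans cells, which use Notch2 themselves, gave 20.6 and 17.2 CPM, and T cell clusters 13.3 and 46.4 CPM. The part of RNA from other cells in these differences was not tested. To set classes beside immune cells at equal depth, each cell was thinned to 2000 UMIs. A Notch2 UMI was then found in 3.78% of immune cells of the control (median depth before thinning 2672 UMIs) and 6.86% of the ablated library (2941 UMIs). Basal interfollicular cells (3.07% and 4.41%) and bulge cells (2.47% and 4.35%) did not exceed these shares. Since Langerhans cells are among the immune cells, these shares are no pure measure of free RNA. Spinous cells (8.52% and 20.6%, median depth 6571 and 4580 UMIs) exceeded them in both libraries. Upper follicle cells (6.85% and 14.5%, 4155 and 3523 UMIs) exceeded them beyond the intervals in the ablated library. Unthinned, the shares were 29.9% and 38.2% of spinous cells, 13.5% and 21.8% of upper follicle cells, 5.45% and 8.49% of basal cells, 3.66% and 6.01% of bulge cells and 3.27% and 8.37% of immune cells. Cells below 2000 UMIs were left out, from 80 ablated basal cells to 1415 control bulge cells.

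At 1 week Notch2 was again higher in all 4 classes that could be compared, and none passed 2-fold. Bulge cells went from 19.4 to 38.4 CPM (log2 ratio 0.98, 0.59 to 1.38), where 5.30% of genes passed 2-fold and 8 cycling genes summed to 286 and 34.8 CPM. Fst-led cells went from 27.3 to 40.8 CPM (0.58, 0.30 to 0.86) and the upper follicle from 69.2 to 83.3 CPM (0.27, 0.02 to 0.51), where 5.17% and 7.52% of genes passed. The sebaceous interval (-0.16 to 1.33) took in no change. Immune cells gave 36.4 and 33.5 CPM at this time, a log2 ratio of -0.12 (-0.87 to 0.61), where 7.03% of genes passed 2-fold.

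Notch3, a receptor known from smooth muscle and from suprabasal keratinocytes, was low in the basal layer. In the 1-day control it was at 4.37 CPM in basal interfollicular, 41.7 CPM in spinous and 31.8 CPM in granular cells and at 42.1 CPM in the upper follicle, the last 3 with overlapping intervals. In the 1-week control it was at 4.10 CPM in basal cells, 64.0 CPM in spinous cells and 73.1 CPM in the upper follicle. At 1 day after ablation spinous cells went from 41.7 to 31.3 CPM (log2 ratio -0.41, -0.68 to -0.16). The ratio was lower within each of the spinous clusters, at -1.33 in the Krt1-led one and -0.46 in the other. The Krt1-led one held 231 ablated cells with 809180 UMIs of all genes, so its ablated value rests on few Notch3 UMIs. Trp63 was no lower in its ablated cells, as given above. Upper follicle cells were at 42.1 and 38.6 CPM (-0.13, -0.37 to 0.11). Notch3 was higher in 5 of 9 classes and lower in 4. It was at 12.3 and 19.3 CPM in the bulge (0.65), 7.88 and 18.5 CPM in sebaceous cells (1.23) and 5.29 and 10.6 CPM in cycling cells (1.00). Basal interfollicular cells (4.37 and 3.98 CPM) and Fst-led cells (14.3 and 15.5 CPM) had intervals that took in no change. Immune cells moved the same way, from 5.60 CPM (13 UMIs) to 23.9 CPM (58 UMIs), a log2 ratio of 2.10 (1.21 to 3.09), and the part of RNA from other cells was not tested. At 1 week the bulge went from 10.4 to 22.5 CPM, a log2 ratio of 1.11 (0.58 to 1.66), which passed 2-fold. In these bulge cells 8 cycling genes summed to 286 CPM in control and 34.8 CPM in ablated cells, and the part of this in the 1-week bulge values of any member was not tested. Immune cells were then at 12.4 and 13.1 CPM, on 14 and 11 UMIs.

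**Figure D2:**
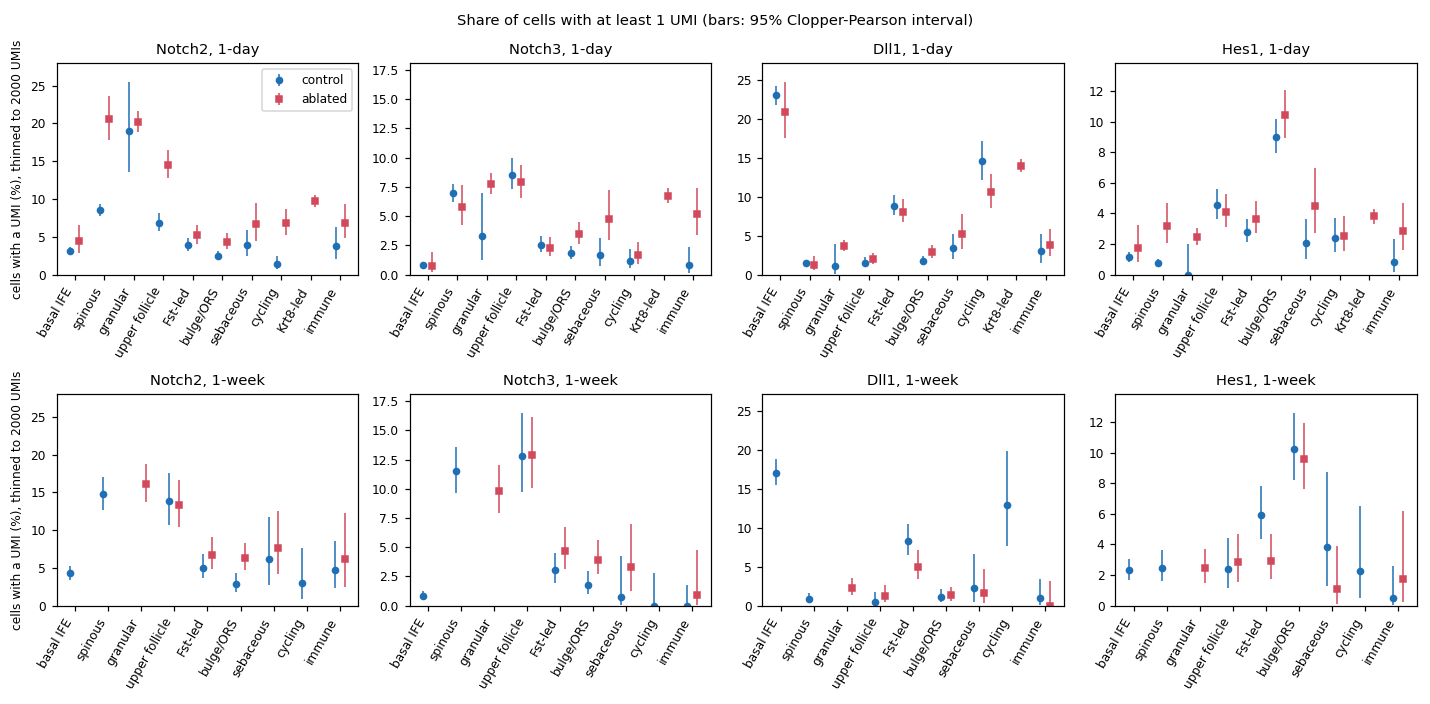
Share of cells with at least 1 UMI of Notch2, Notch3, Dll1 or Hes1 (vertical axis, percent) by class after each cell was thinned to 2000 UMIs, at 1 day (top) and 1 week (bottom), for control (circles) and ablated (squares) libraries; bars are 95% Clopper-Pearson intervals, and immune cells stand at the right of each panel. Notch2 in ablated spinous cells (20.6%) lies above immune cells (6.86%), while basal and bulge cells do not.

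The ligand genes were each highest in a different named keratinocyte class of the 1-day control. For Jag2 the interval of the highest class overlapped that of the next. Dll1, a ligand of basal epidermal cells, was at 149 CPM in basal interfollicular cells of the 1-day control. Cycling cells (78.8 CPM) and Fst-led cells (51.9 CPM) followed, each interval apart from the next. The other named keratinocyte classes were between 6.65 and 14.1 CPM, with 7.25 CPM in spinous cells and 8.49 CPM in the bulge, and the class without a clear layer was at 28.5 CPM. The 1-week control had the same order at the top: 115 CPM in basal, 71.3 CPM in cycling and 43.9 CPM in Fst-led cells. After thinning, a Dll1 UMI was found in 23.0% of control basal cells at 1 day and in 2.97% of immune cells, and spinous cells (1.51%) did not exceed the latter. The unthinned shares were 40.3%, 2.56% and 5.07%.

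Within the basal class, 1 day after ablation, Dll1 was at 149 CPM in control and 139 CPM in ablated cells (log2 ratio -0.10, -0.28 to 0.08). Fst-led cells were at 51.9 and 50.0 CPM (-0.05, -0.25 to 0.14). Both intervals took in no change, and cycling cells went from 78.8 to 62.5 CPM (-0.34, -0.54 to -0.13). The value over all keratinocytes was lower (-0.63), and basal cells numbered 4881 among control and 601 among ablated cells. With the Krt8-led cells counted in, it was -0.04, at 46.5 and 45.3 CPM. In the upper follicle Dll1 went from 6.65 to 13.7 CPM (57 and 88 UMIs, log2 ratio 1.05), which passed 2-fold. Bulge cells (8.49 and 14.5 CPM, 0.77) were also higher, but both stood at or below the 21.5 and 28.1 CPM of immune cells. At 1 week Fst-led cells went from 43.9 to 30.7 CPM (-0.52, -0.78 to -0.26), and the bulge was at 8.77 and 9.71 CPM (0.15, -0.53 to 0.83).

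Jag1, the ligand known from the follicle bulge, was highest there among the named keratinocyte classes of each library. It was at 155 CPM in the 1-day control, 181 CPM in the 1-day ablated, 163 CPM in the 1-week control and 175 CPM in the 1-week ablated library. Fst-led cells came next in both controls (85.7 and 98.6 CPM), and spinous cells (24.9 and 33.5 CPM) were near the bottom of the order. The bulge ratio was small at both times, 0.22 (0.12 to 0.32) at 1 day and 0.10 (-0.05 to 0.25) at 1 week. Jag1 was lower at 1 day in basal interfollicular cells (39.3 and 24.8 CPM, log2 ratio -0.66, -1.10 to -0.25) and spinous cells (24.9 and 18.7 CPM, -0.42, -0.76 to -0.09). At 1 week it was higher in the upper follicle, at 42.4 and 59.6 CPM (0.49, 0.19 to 0.80), and lower in the shared sebaceous cluster, at 59.0 and 30.1 CPM (-0.97, -1.58 to -0.39). None of these reached 2-fold. In the 1-week upper follicle 8 cycling genes summed to 11.3 CPM in control cells, with 3 of them at 0, and to 43.1 CPM in ablated cells. There 8 T cell genes summed to 47.2 and 25.8 CPM and 6 melanocyte genes to 13.3 and 29.4 CPM, and the part of these in the 1-week upper follicle values of any member was not tested.

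Jag2 was split by layer like Dll1 but reached further into the follicle. In the 1-day control it was at 71.0 CPM in cycling, 60.1 CPM in Fst-led, 53.1 CPM in bulge and 51.6 CPM in basal interfollicular cells, and neighbours in this order overlapped. Spinous cells (3.64 CPM) and the upper follicle (5.72 CPM) were at the bottom, below the 19.8 CPM of immune cells. The 1-week control gave 98.6 to 107 CPM in 5 classes and 2.67 and 2.91 CPM in spinous and upper follicle cells. After ablation Jag2 was lower in 7 of 8 classes at 1 day and in 3 of 3 at 1 week. At 1 day basal cells went from 51.6 to 39.8 CPM (log2 ratio -0.38, -0.72 to -0.05), Fst-led cells from 60.1 to 48.8 CPM (-0.30, -0.49 to -0.11) and cycling cells from 71.0 to 42.1 CPM (-0.75, -1.0 to -0.51). Bulge cells went from 53.1 to 45.4 CPM (-0.23, -0.42 to -0.03). The class without a clear layer passed 2-fold, at 63.8 and 22.1 CPM, but its clusters are filled differently by the libraries. At 1 week Fst-led cells went from 105 to 80.4 CPM (-0.39, -0.55 to -0.23) and the shared sebaceous cluster from 106 to 49.1 CPM (-1.11, -1.57 to -0.66), where 8.92% of genes passed 2-fold. Immune cells at 1 day went from 19.8 to 8.25 CPM (-1.26, -2.10 to -0.48), and the part of RNA from other cells was not tested.

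Lfng encodes Lunatic fringe, a glycosyltransferase that adds sugar to Notch receptors and changes which ligands they answer. It was low, and among the named keratinocyte classes highest in the bulge and outer root sheath: 14.6 CPM in the 1-day control, 9.50 CPM in the 1-day ablated, 37.9 CPM in the 1-week control and 29.4 CPM in the 1-week ablated library. The log2 ratios there were -0.62 (-1.04 to -0.20) and -0.37 (-0.72 to -0.02). Within the 1-day control bulge it was at 20.4 CPM in the cluster led by Krt24 and Cd34 and at 2.35 CPM in the one led by Ramp1 and Fgf18. In spinous cells of the 1-day control 5 UMIs were counted in all.

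Rbpj, the DNA-binding partner of all Notch receptors, was broad, from 35.4 CPM in spinous to 79.1 CPM in bulge cells of the 1-day control. It was higher 1 day after ablation in each of the 9 classes, with log2 ratios of 0.31 to 0.75 and intervals above 0, and passed 2-fold in none. Basal cells went from 65.8 to 92.9 CPM (0.50, 0.27 to 0.72), spinous cells from 35.4 to 50.4 CPM (0.51, 0.30 to 0.72) and bulge cells from 79.1 to 106 CPM (0.42, 0.28 to 0.56). Over the 17 clusters with at least 50 Rbpj UMIs the ratio was above 0 in 17 and its interval in 10. Immune cells, which express Rbpj strongly, were at 127 and 132 CPM (0.06, -0.17 to 0.29). At 1 week 2 of 4 classes were higher and 2 lower, with 69.9 and 86.9 CPM in the bulge (0.31, 0.09 to 0.54) and 39.8 and 34.9 CPM in Fst-led cells (-0.19, -0.45 to 0.07).

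**Figure D3:**
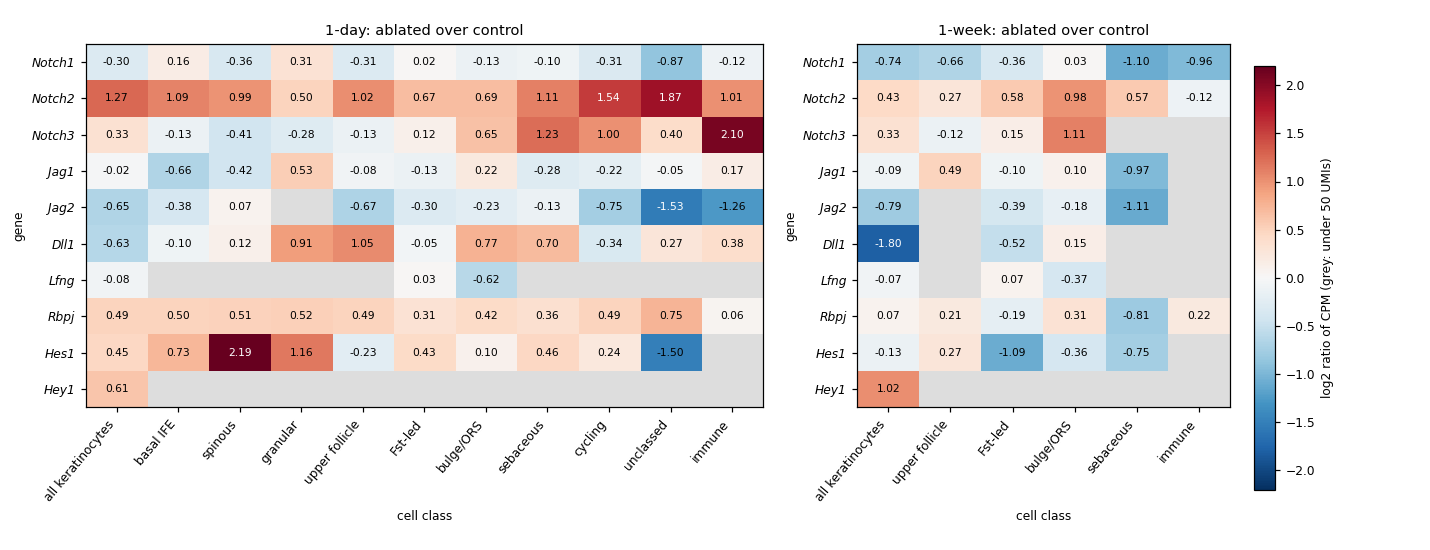
Log2 ratio of ablated over control CPM for each member (rows) in all keratinocytes, in each class and in immune cells (columns), at 1 day (left) and 1 week (right); grey cells had under 50 UMIs over both sums. Notch2 and Rbpj are above 0 in each of the 9 classes at 1 day, and Hes1 has its highest value, 2.19, in spinous cells.

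Hes1, a target gene often used as a readout of Notch activity, was highest in the bulge among the named keratinocyte classes of each library. It was at 72.2 CPM in the bulge and 31.3 CPM in the upper follicle of the 1-day control, and at 5.09 and 4.82 CPM in basal and spinous interfollicular cells. The class without a clear layer was as high as the bulge there, at 72.7 CPM. The bulge was not uniform. The cluster led by Ramp1 and Fgf18 was at 172 CPM, and the one led by Krt24 and Cd34, genes of the outer bulge, at 39.6 CPM. In the upper follicle, too, one cluster was at 64.3 CPM and the other at 10.1 CPM. In the 1-week control the bulge was at 73.7 CPM, Fst-led cells at 33.9 CPM and the remaining named keratinocyte classes between 10.0 and 26.7 CPM. Thinned shares of cells with a Hes1 UMI were 9.01% and 10.4% in control and ablated bulge cells at 1 day against 0.811% and 2.86% in immune cells, and unthinned they were 11.9%, 13.4%, 1.24% and 2.63%.

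Among keratinocyte class ratios with at least 50 UMIs, the largest of any member at 1 day was that of Hes1 in spinous cells, at 4.82 CPM (183 UMIs) in control and 22.0 CPM (98 UMIs) in ablated cells, a log2 ratio of 2.19 (1.82 to 2.55), beside the Langerhans cell gene sums of 76.4 and 141 CPM given above. Both spinous clusters showed it. The Krt1-led one gave 3.71 and 11.1 CPM (1.58), and the one led by Serpinb12 and Ivl gave 6.38 and 24.5 CPM (1.94). The libraries filled these clusters differently, and the class ratio lay above that of either. The Krt1-led one held 231 ablated cells with 809180 UMIs of all genes, so its 11.1 CPM rests on few Hes1 UMIs. Trp63 was no lower in its ablated cells, as given above. The shared granular cluster also passed 2-fold, at 9.07 CPM (16 UMIs) and 20.3 CPM (75 UMIs), a log2 ratio of 1.16 (0.37 to 2.04). These levels are low: after thinning, 0.724% of control and 3.20% of ablated spinous cells held a Hes1 UMI, with intervals that overlapped those of immune cells of the same libraries, and unthinned 3.19% and 9.51%. Immune cells were at 8.61 and 10.7 CPM (0.32, -0.58 to 1.24). In the follicle the Hes1 intervals took in no change at 1 day, with 72.2 and 77.1 CPM in the bulge (0.10, -0.06 to 0.25) and 31.3 and 26.7 CPM in the upper follicle (-0.23, -0.51 to 0.05). The class without a clear layer was lower, at 72.7 and 25.7 CPM (-1.50), and its clusters are filled differently by the libraries. At 1 week Fst-led cells went from 33.9 to 16 CPM, a log2 ratio of -1.09 (-1.43 to -0.75), and the bulge from 73.7 to 57.3 CPM (-0.36, -0.61 to -0.11). In these Fst-led cells 8 cycling genes summed to 835 and 1253 CPM and 8 T cell genes to 36.8 and 62.3 CPM, and their part in the 1-week Fst-led values of any member was not tested.

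Hey1, the other target, was close to absent from interfollicular cells, with 2 UMIs in 4881 basal and 2 in 4796 spinous cells of the 1-day control. The bulge held 23 of its 36 keratinocyte UMIs in the 1-day control and 17 of 34 in the 1-day ablated library. It was there at 1.99 and 2.34 CPM in the 1-day control and ablated libraries and at 4.26 and 5.92 CPM at 1 week (18 and 25 UMIs). Both intervals of the ratio, -0.76 to 1.20 and -0.46 to 1.43, took in no change. The Ramp1 and Fgf18 cluster, at 5.64 CPM in the 1-day control, was again the highest bulge cluster. At 1 week the upper follicle held 1 control and 11 ablated Hey1 UMIs, too few for a call.

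**Figure D4:**
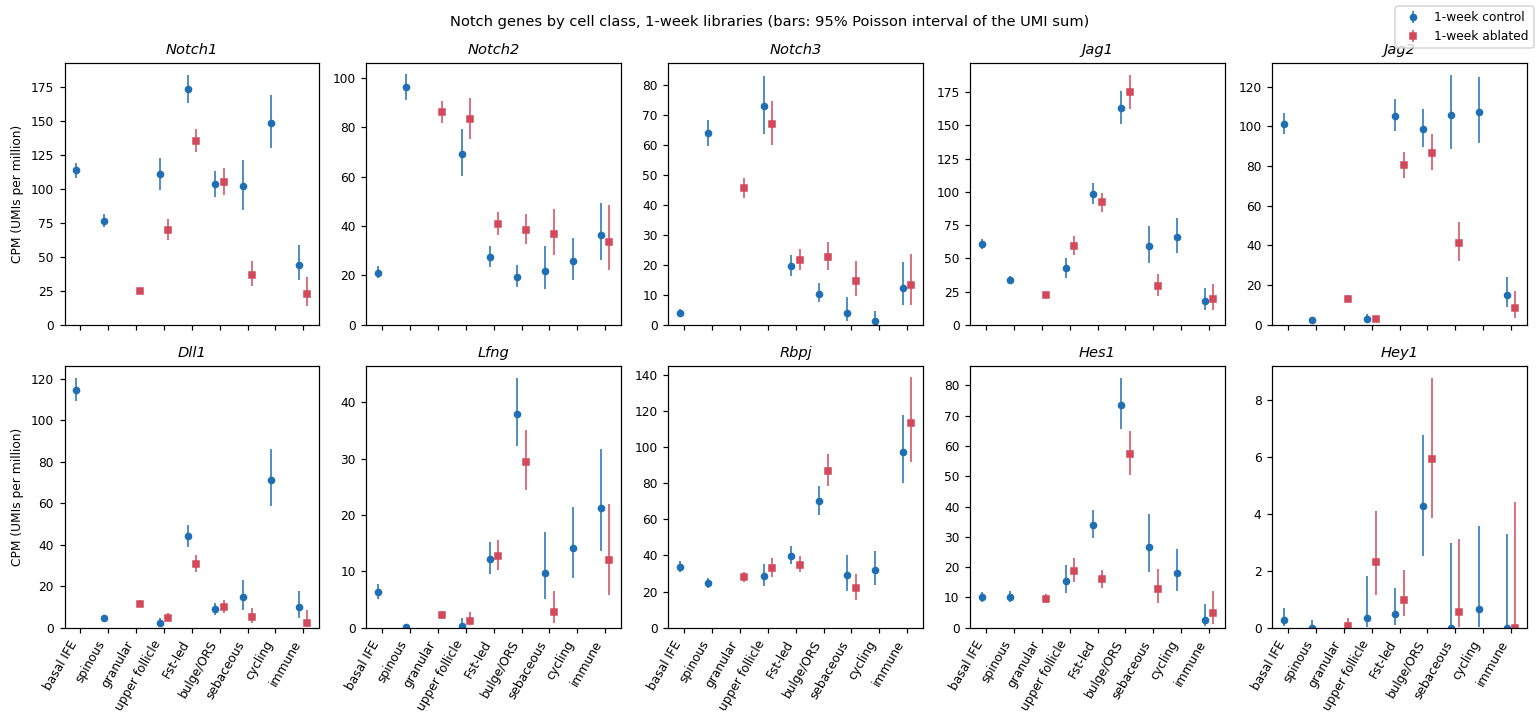
CPM of each member (vertical axis, linear, from 0) by cell class in the 1-week control (circles) and 1-week ablated (squares) libraries; bars are 95% Poisson intervals of the UMI sum. Basal, spinous and cycling cells are shown for the control alone and granular cells for the ablated library alone. The other library held under 50 of them. Dll1 is at 115 CPM in control basal cells.

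The clusters that the ablated library held nearly alone had their own mixture of members. Krt8-led cells of the 1-day ablated library were at 51.8 CPM of Trp63. Dll1 was at 81.6 CPM in them, between basal interfollicular (139 CPM) and Fst-led cells (50 CPM) of that library, with Notch2 at 51.6 CPM and Notch3 at 37.5 CPM. Rbpj was at 96.5 CPM, next to the bulge (106 CPM) at the top of the named keratinocyte classes of that library and with overlapping intervals. Hes1 was at 21.4 CPM. Jag1 (14.3 CPM) and Jag2 (8.87 CPM) were below the 28.1 and 8.25 CPM of immune cells or close to them, and Notch1 was at 49.4 CPM. After thinning, 13.9% of these cells held a Dll1 UMI against 3.81% of immune cells of that library, and unthinned 21.7% and 6.58%. Dll1 was at 96.1 CPM in the one led by Krt8, Krt18 and Tslp and at 63.5 CPM in the one led by Slc6a14 and Plau, and Notch2 was at 42.9 and 62.4 CPM. The granular cluster led by Slpi and Sprr2 genes had Notch2 at 104 CPM, Notch3 at 46.8 CPM and Dll1 at 20 CPM. At 1 week the granular cells of the ablated library were at 86.0 CPM of Notch2, 45.6 CPM of Notch3 and 11.6 CPM of Dll1.

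Outside the keratinocytes 3 classes stood out. Fibroblasts of the 1-day libraries were at 338 CPM (control, 468 cells) and 122 CPM (ablated, 262 cells) of Dll1. The 1-week fibroblasts, 167 and 90 cells from the other kit, were at 18.4 and 2.76 CPM, on 14 and 1 UMIs. Smooth muscle or pericyte cells, found at 1 week alone, were at 607 and 367 CPM of Notch3 and 335 and 205 CPM of Hes1, on 34 control and 42 ablated cells. Endothelial cells, also at 1 week, were at 34.9 and 52.7 CPM of Hey1, on 7 and 5 UMIs.

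Of 50 further genes (among them ligands, fringe and sugar-adding enzymes, proteases that cut the receptor, nuclear cofactors, negative regulators and targets), 39 had enough UMIs in keratinocytes at 1 day. Past 2-fold was 1 of them, Dlk2, a non-canonical ligand, at 6.86 CPM in control and 3.03 CPM in ablated cells (log2 ratio -1.18), against 1.94% of all genes 2-fold lower. Their median log2 ratio was 0.10. At 1 week 40 were tested, 4 were 2-fold lower and 1 was 2-fold higher, against 4.81% and 9.04% of all genes. Among the lower were Dlk2 (18.2 and 8.74 CPM, -1.06), Aph1c of the γ-secretase complex (6.46 and 2.80 CPM, -1.21) and Neurl3 (3.18 and 0.679 CPM, -2.23). Dlk1, also a non-canonical ligand, was at 0.33 and 0.961 CPM (1.54) on 16 and 34 UMIs. The canonical targets Hes5, Hey2 and Heyl had under 50 UMIs at both times; they are named after their values were seen.

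Genes with the most alike pattern were sought over 54 sums of a class in a library, by the correlation of log2(CPM + 1). These sums share libraries and classes, so the values describe likeness and carry no p. Jag1 was most like Nfib, a bulge transcription factor, and Lmo1 (r = 0.86 for both), and Jag2 most like Ctnnal1 and the integrin gene Itga3 (0.82). Dll1 was most like Flvcr1 (0.76) and Itga2 (0.74), Notch1 like Syne2 (0.81) and Crim1 (0.78), and Rbpj like S100a4 (0.82) and Rasa2 (0.79). Notch2 was most like Slc35f5 and Srxn1 (0.79) and Notch3 like Rhov and Sort1 (0.73). Hes1 was closest to Dmd (0.78) and Adamts9 (0.74), Lfng to Clta (0.73) and Trim59 (0.71), and Hey1, with few UMIs, to Zbtb16 (0.67) and Atf7 (0.66).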

How the data were processed

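Single-cell RNA libraries of epidermal cells were analysed, 1 per group (1-day control, 1-day ablated, 1-week control, 1-week ablated). The authors deposited raw UMI counts per gene and cell barcode, made with Cell Ranger 5.0.1 on mm10 per the submitters' processing notes, which also list Seurat with no version. Barcodes per library numbered 33552, 32212, 25039 and 18413. Kept were barcodes with at least 500 UMIs, 300 genes and at most 15% mitochondrial UMIs. A simulated-doublet score (scanpy 1.11.5) removed 14.7% to 26.8% of them, at a fixed rate of 0.8% per 1000 barcodes in the library. The score's own threshold was not used. It marked 35.2% (1-day control), 99.6% (1-day ablated), 0.07% (1-week control) and 0.02% (1-week ablated). Cells were clustered per time point (Leiden, leidenalg 0.10.2, resolution 1) on 2000 variable genes without the Notch pathway genes. Classes were named from fixed marker lists; the thresholds of the naming were set after seeing the data, so a class may differ from the study's own. Barcodes with a profile like free RNA were 25.4% to 73.1% of a library and stayed in for the clustering. At 1 week the clusters called low-UMI, with 11667 control and 11353 ablated barcodes, were then left out of all classes and keratinocyte sums. At 1 day no cluster was left out for its share of such barcodes. The 1-day bulge cluster led by Krt24 and Cd34, for example, was kept with a share of 70.2% over both libraries.

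UMIs were summed per library and class. Levels carry exact Poisson 95% intervals, ratios exact conditional binomial intervals, and shares of cells Clopper-Pearson intervals. UMIs count molecules, and these intervals cover counting error only. The sums and calls were tested on simulated data. All 10 members are described over all keratinocytes at 1 day and across classes. At 1 week only those past 2-fold are given with values over all keratinocytes. Values by hashtag, in low-UMI barcodes and in clusters of 1 library are given for members chosen after their values were seen. Of the other pathway genes those past 2-fold are named, except 1 that is not reported here, and for each member the 2 genes of highest correlation, among genes with a mean of at least 20 CPM. The members and gene lists were chosen with earlier results of these data known. Promoter windows came from RefSeq and gene positions from GENCODE M21, which held 32158 of the 32285 gene IDs (99.6%). Alternatives covered scaling (edgeR 4.0.16 TMM), totals, doublets, resolution, the UMI minimum, the call and thinning. Hashtag counts were kept out of all sums.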

Additional observations from a re-analysis of the deposited data

Results flagged for a closer look

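The 1-day libraries hold antibody hashtag counts that entered none of the comparisons above. They served only to split the keratinocytes by leading hashtag under the other observations below. The 1-day control library held 14834431 hashtag UMIs and the 1-day ablated library 12094607, nearly all on hashtags 1 to 3. What the hashtags mark is not given in the sources used here, so they were not used as replicates.

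The Hes1 ratio in Fst-led keratinocytes went in opposite directions at the time points. Its log2 ratio of ablated over control was 0.43 at 1 day and -1.09 at 1 week. The difference between the time points was not tested, and the kits differed between them. In these cells 8 cycling genes summed to 91.7 (control) and 127 CPM (ablated) at 1 day. At 1 week they summed to 835 and 1253 CPM, and their part in the ratios was not tested.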

How the results depend on the processing

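At 1 day 1 member passed 2-fold under the main settings, and 4 did when the call was set at 1.5-fold, which 19.3% of all genes passed. The median log2 ratio of the members at 1 day was 0.32 over clusters with at least 50 cells of both libraries, against 0.15. That alternative was chosen after seeing the data. At 1 week 2 members passed under the main settings, where Hey1 lay closer to the 2-fold limit than Dll1. With TMM scaling 1 passed, with totals without mitochondrial and ribosomal protein genes 1, and with the mean of the CPM per cell 1. The shares of all genes past 2-fold under these alternatives are not given here. At 1.5-fold 4 passed (29.2% of all genes), and over clusters of both libraries 0 did (5.41%). Ratios of single members over all keratinocytes shifted as well. With totals without mitochondrial and ribosomal protein genes 11 moved past the limit set and 9 did not. The counts were 8 and 12 with TMM scaling and 15 and 5 over clusters of both libraries. With cycling clusters left out all 20 stayed. Of the class ratios of 2-fold or more, 3 changed direction under 1 alternative each. Hes1 in the class without a clear layer at 1 day was 0.65 at resolution 0.5, against -1.50. Dll1 in the upper follicle at 1 week was -0.36 with doublets kept, against 1.08 on under 50 UMIs. Hey1 in Fst-led cells at 1 week was -0.73 with the mean of the CPM per cell, against 1.03 on 10 UMIs. The causes were not tested. No paired analysis was possible because each group was 1 library. Depth limits Hey1, at 31 to 46 keratinocyte UMIs per library, and Lfng outside the bulge.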

Other observations

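Keratinocytes of the 1-day libraries were also summed by their leading hashtag. Notch2 was at 32.6, 34.7 and 31.5 CPM for hashtags 1, 2 and 3 in the control and at 62.6, 72.5 and 65.7 CPM in the ablated library. Cells with no leading hashtag gave 25.9 and 81.1 CPM. Dll1 ranged more within a library, at 32.6, 64.0 and 52.0 CPM in the control and 34.3, 18.1 and 35.2 CPM in the ablated library. Cells with no leading hashtag gave 41.5 and 31.5 CPM of Dll1. Hes1 was at 18.8, 12.4 and 11.4 CPM in the control and 19.9, 15.2 and 27.5 CPM in the ablated library, and at 28.6 and 29.9 CPM in cells with no leading hashtag. For Notch1, hashtags 1, 2 and 3 gave 73.5, 75.1 and 78.8 CPM (control) and 60.2, 59.3 and 87.4 CPM (ablated). The 8001 control and 10393 ablated cells with no leading hashtag were at 94.4 and 65.0 CPM of Notch1. Ablated cells of hashtag 3 thus stood above control cells of hashtags 1 and 2. Their interval (80.9 to 94.4 CPM) overlapped that of control cells of hashtag 3 (75.3 to 82.4 CPM). It also overlapped that of control cells with no leading hashtag (91.0 to 97.9 CPM). The Notch1 sum over all keratinocytes was lower after ablation. Notch3 was at 27.7, 22.9 and 24.4 CPM in the control and 34.7, 40.3 and 23.2 CPM in the ablated library. In the ablated library hashtag 3 was again apart from hashtags 1 and 2. Cells with no leading hashtag gave 20.4 and 26.3 CPM of Notch3. Trp63 was at 393, 427 and 385 CPM in the control and 120, 122 and 173 CPM in the ablated library. It was at 411 and 148 CPM in cells with no leading hashtag. Whether the hashtag numbers pair cells across the libraries is not given in the sources used here.

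The low-UMI clusters of 1 week, where at least 50% of barcodes resembled free RNA, entered no class. Dll1 stood at 45.1 (control) and 15.4 CPM (ablated) over their barcodes. The part of free RNA in the values of these barcodes was not tested. Notch1 was at 104 and 56.1 CPM there, Jag2 at 55.9 and 31.1 CPM and Notch2 at 51.6 and 46.0 CPM. Trp63 was at 450 and 154 CPM in the same barcodes.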
